A study of Mus musculus with 9 samples.

Results

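Fatty acid uptake and oxidation is described here through 39 genes grouped by function: the proteins that bring fatty acids into the heart muscle cell, activate them, carry them into mitochondria, shorten them by beta-oxidation and pass the electrons on, with 5 regulators. Of these, 36 were measured among 18193 genes. Acsl1, Cpt1b and Ucp2 are not analysed here, because no probe set was assigned to Acsl1 or Ucp2 alone and the probe set for Cpt1b was also assigned to Chkb and Gm44502. RNA came from 9 samples of C57BL/6 mice aged 2 months, 3 per group, labelled as biological replicates. The mutant right atria carried Myh6-cre and COUP-TFIIflox/flox. The control right atria and the control ventricles carried COUP-TFIIflox/flox without Cre, so all 3 groups shared the floxed allele, and what Cre does on its own and what the deletion does cannot be told apart. The Myh6 promoter drives Cre in cardiomyocytes, and COUP-TFII (gene symbol Nr2f2) is a nuclear receptor that is more abundant in atria than in ventricles; the design asks how an atrium that lacks it in its muscle cells compares with a normal atrium and with a ventricle.

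The adult heart draws much of its energy from long-chain fatty acids. They are released from lipoproteins or stored triglyceride, bound and esterified to coenzyme A, exchanged onto carnitine to cross the mitochondrial membranes, and cut down in repeated cycles of dehydrogenation, hydration, dehydrogenation and thiolysis. The ventricle, which works against a higher pressure than the atrium, is rich in mitochondria, and the nuclear receptor PPAR alpha with its coactivator PGC-1 alpha induces many of these genes.

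The deposited values had been processed with RMA, which equalises the distributions of arrays, so their even brightness does not describe the samples. The median intensity was between 80.9 and 83.4 per array, and the brightest probe sets ended between 15.02 and 15.11 on the log2 scale. Fabp3, Lpl, Acadm, Hadhb, Hadh and Ech1, with ventricular means of 14.22 to 14.64, lie near that upper end, where differences can be compressed. Nr2f2 read 6.82, 6.62 and 6.82 in the mutant, 7.53, 7.66 and 7.29 in the control atria, with the ventricles at 5.96, 5.34 and 5.74, and was lower in the mutant than in the control atria by limma (log2 difference -0.74 ± 0.15 SE, adjusted p = 0.0109, n = 3 arrays per group). The control atria contained liver transcripts. The mean level of 12 hepatocyte genes was 9.63, 8.86 and 7.52 on the 3 control atrial arrays, against 5.66 to 5.71 in the mutant atria and 5.37 to 5.47 in the ventricles, and albumin read 12.25, 10.81 and 8.73 in the control atria. All 8 mesothelial markers were also higher in the control atria than in either other group. Of all genes, 9.79% were called lower in the mutant and 23.6% lower in the ventricle than in the control atria. Between mutant and control atria 17.5% of all genes were called, and 16.7% were lower in the mutant than in the ventricle. Of 7 cardiomyocyte genes, 0 were called between mutant and control atria by limma and 1 was lower in the mutant than in the ventricle. Their array means of 14.26 to 14.39 lie in the same bright range. The difference between the 3' and 5' probe sets of Gapdh, a gauge of RNA and labelling quality, was 0.21 to 0.30 in the mutant, 0.34 to 0.36 in the control atria, with the ventricles at 0.15 to 0.23. Sex differed too. Xist read 12.48, 6.73 and 6.48 in the mutant, 12.73, 8.55 and 10.91 in the control atria, with the ventricles at 11.80 to 11.87, and the Y-linked Eif2s3y read 3.90, 10.01 and 10.05 in the mutant, 6.35, 9.97 and 9.53 in the control atria, with the ventricles at 3.67 to 3.82, so all control atrial arrays carried both. In bulk tissue, fewer cells of a type and less RNA per cell cannot be told apart.

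Promoter sequence was examined because these genes tended to differ in the same direction between the chambers. RefSeq windows of the mouse build GRCm38.p6, from 250 bases before to 50 bases after each start, were found for 32 of the 36 measured genes (35 windows). Lpl, Acot13, Acaa2 and Decr1 had none. The first stretch is the sequence upstream of Hadhb, shown because Hadha and Hadhb encode the alpha and beta subunits of the same enzyme, the mitochondrial trifunctional protein, and are transcribed away from each other from starts with 272 bases between them. Both genes thus share 228 bases of their windows. The stretch lies at chr5:30155003-30155252 on the plus strand and covers the 250 bases before the Hadhb start; capitals mark the GC box GGGCGG, a letter pattern read on both strands.
Hadhb: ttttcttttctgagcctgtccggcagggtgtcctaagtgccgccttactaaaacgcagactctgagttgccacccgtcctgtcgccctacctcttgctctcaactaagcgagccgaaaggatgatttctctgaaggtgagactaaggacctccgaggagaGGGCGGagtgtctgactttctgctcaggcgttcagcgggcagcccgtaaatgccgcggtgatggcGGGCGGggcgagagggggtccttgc
The GC box was present in 22 of the 35 windows (62.9%) and in 35.7% of all 32851 windows. The windows of Hadha and Hadhb both count, and the box of Hadha is the first of those marked above. This motif was not among those planned, and a link of its share to the chamber differences was not tested.

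The other stretches are the printed examples of the nuclear receptor motif AGGTCA, which members of the family that includes PPAR alpha, the estrogen-related receptors and COUP-TFII can bind. Capitals mark this motif, spelled TGACCT where it lies on the opposite strand. They come from 160 to 21 bases before the start of Ucp3 (chr7:100472831-100472970, plus strand), 120 to 51 before that of Acadvl (chr11:70015479-70015548, minus strand), and 120 to 61 before that of Cpt1a (chr19:3323181-3323240, plus strand). Those of Acadm (chr3:153944834-153944893, minus strand) and Cd36 (chr5:17836087-17836146, minus strand) are the first 60 bases of their windows.
Ucp3: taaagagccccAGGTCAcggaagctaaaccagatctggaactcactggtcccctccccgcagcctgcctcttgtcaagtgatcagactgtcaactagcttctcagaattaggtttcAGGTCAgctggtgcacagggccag
Acadvl: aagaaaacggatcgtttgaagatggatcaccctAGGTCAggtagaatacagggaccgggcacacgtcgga
Acadm: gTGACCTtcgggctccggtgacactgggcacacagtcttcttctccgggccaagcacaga
Cpt1a: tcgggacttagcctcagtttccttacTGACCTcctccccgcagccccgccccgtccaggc
Cd36: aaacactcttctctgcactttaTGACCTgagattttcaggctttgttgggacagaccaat
Ucp3 held 2 copies in this stretch. It occurred in 6 of the 35 windows (17.1%), the sixth being that of Acacb, and in 16.3% of all windows, so its share among these genes was close to that of promoters in general. The direct repeat AGGTCANAGGTCA, the textbook PPAR element, was in 0 of the 35 windows and in 0.0396% of all windows, and TCAAGGTCA, the extended motif of the estrogen-related receptors, in 0 and 0.423%. Both contain AGGTCA. A match is a letter pattern and not a shown binding site, and elements outside these windows were not searched.

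The mutant right atrium was compared with the control right atrium first. Of the 36 genes, 16 rose, 1 fell (Acsl5) and 19 were not called at an adjusted p of 0.05 by limma, against 17.5% of all 18193 genes called, 7.76% higher and 9.79% lower. The median log2 difference was 0.26, beside 0.03 over all genes, and 29 of the 36 differences were positive. The changes were small. Called genes differed between 1.18-fold and 1.6-fold, and none reached 2-fold. All 3 mutant arrays read above all 3 control arrays for 20 genes and below them for 2 (Acsl4 and Acsl5), where 18.9% of all genes lay above and 18.9% below.

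The number of calls changed with single arrays and with a covariate for the liver transcripts. With the first control atrium left out, 6 genes were called, with the second mutant atrium left out 7, and with the third mutant atrium left out 8. Acads, Acot2, Ech1, Eci1, Etfb and Hadha were called whichever array was left out. The calls for Cd36, Acsl5, Cpt2, Acadvl and Decr1 were each lost without mutant atrium 2, mutant atrium 3 or control atrium 1. That for Decr1 was also lost without control atrium 3 and with only the 2 groups compared, and that for Slc27a1 without control atrium 1. With the mean of the 12 hepatocyte genes as a covariate, which nearly follows the split between control atria and the other arrays, 0 of the 36 were called: the median SE of these genes went from 0.092 to 0.23, the median difference from 0.26 to 0.21, and all 17 called genes kept their sign. The control atrium with the most liver transcripts, replicate 1, was also the lowest of its group for 24 of the 36 genes. Replicate 1 was also the array most often lowest among the mutant atria (19 genes) and the ventricles (16 genes), where the hepatocyte list was low. The part of liver RNA in the differences was not tested beyond this fit.

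The control ventricle differed from the control right atrium far more. There, 30 of the 36 genes were higher, 3 were lower (Acsl4, Acsl5 and Cpt1a) and 3 were not called (Acsl3, Ppargc1a and Pdk4), where 52.8% of all genes were called, 29.2% higher and 23.6% lower. The median log2 difference was 0.76, against 0.07 over all genes, and 14 genes differed at least 2-fold, the largest being Eci1 at 3.18-fold. The arrays did not overlap for 33 genes, 30 above and 3 below, where 33.0% of all genes lay above and 26.7% below. With the hepatocyte covariate, 6 were called: Acot2, Eci1, Etfb, Hadha and Mlycd higher and Acsl5 lower. All 33 kept their sign, and the median difference of the 36 genes was 0.77 beside 0.76 without the covariate, while their median SE went from 0.092 to 0.25. Leaving out 1 array at a time gave 32 or 33 calls.

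Against the control ventricle, the mutant atrium was lower in 28 genes and higher in 3 (Acsl4, Acsl5 and Cpt1a), and 5 were not called (Slc27a1, Acsl3, Acaa1a, Ppargc1a and Pdk4). Of all genes, 32.7% were called in this comparison, 16.0% higher and 16.7% lower. The median log2 difference was -0.59, against -0.05 over all genes. Acot1, Acot2, Eci1 and Ucp3 were lower by at least 2-fold. The hepatocyte list averaged 5.37 to 5.71 on all 6 arrays compared here, and 30 of the 31 calls remained with the hepatocyte covariate. The mutant atria thus read below the ventricles for most of these genes. The comparisons share arrays, so their values for each gene are set side by side below and no agreement between them was computed.

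**Figure D1:**
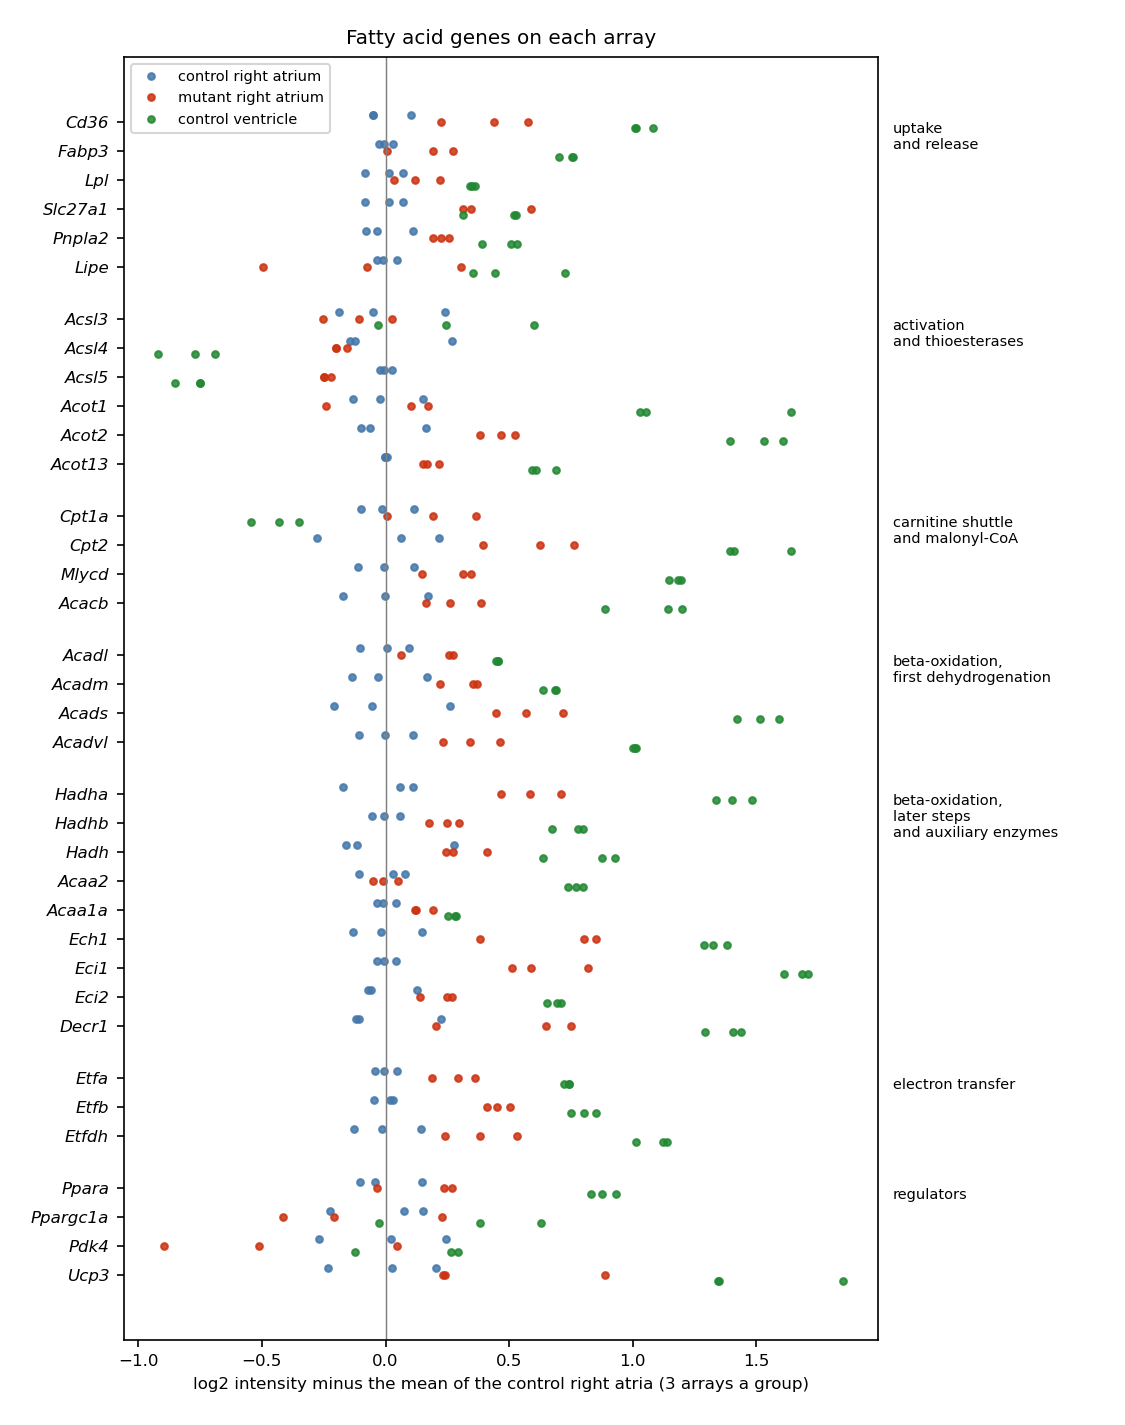
Each point is 1 array and each row 1 gene; the x axis gives log2 intensity minus the mean of the 3 control right atria. The ventricles (green) lie to the right for 30 of the 36 genes and to the left for Acsl4, Acsl5 and Cpt1a, and the mutant atria (red) lie wholly to the right of the control atria (blue) for 20.

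Of the 6 genes for uptake and release, 2 rose in the mutant and 0 fell, and all 6 were higher in the ventricle than in the control atrium. Cd36, the fatty acid translocase of the plasma membrane, read 13.13, 13.49 and 13.35 in the mutant, 12.86, 13.01 and 12.86 in the control atria, with the ventricles at 13.99, 13.93 and 13.92. The 3 groups were fully separated. Cd36 was 1.33-fold higher in the mutant than in the control atria (log2 difference 0.41 ± 0.09 SE, limma adjusted p = 0.015) and higher in the ventricle by 1.04 (adjusted p = 1.83e-05), and its 3 probe sets differed by 0.41, 0.36 and 0.40. Slc27a1, a fatty acid transporter that also activates its cargo, read 9.21, 8.94 and 8.97 in the mutant, 8.54, 8.64 and 8.69 in the control atria, with the ventricles at 8.94, 9.15 and 9.14. Here the mutant and ventricular arrays overlapped: the mutant rose by 0.41 ± 0.09 (adjusted p = 0.0158), the ventricle stood 0.45 above the control atrium (adjusted p = 0.00308), and the mutant differed from the ventricle by -0.04 ± 0.09 (adjusted p = 0.783). A second probe set of Slc27a1, of similar brightness, was not called against the control atrium in either group. It differed by 0.26 in the mutant (limma adjusted p = 0.200) and by 0.27 in the ventricle (limma adjusted p = 0.107).

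The other members of this step were not called in the mutant. Fabp3, the binding protein that carries fatty acids through the cytosol, differed by 0.16 (adjusted p = 0.173), Lpl, the lipase that frees them from lipoproteins, by 0.12 (adjusted p = 0.241), and Pnpla2, which starts triglyceride breakdown, by 0.22 (adjusted p = 0.0561). All 3 were higher in the ventricle than in the control atrium, by 0.74, 0.35 and 0.48. The hormone-sensitive lipase gene Lipe varied most of these 6 among the mutant atria, at 7.90, 7.52 and 7.09, around control values of 7.58, 7.56 and 7.64. Its ventricular values of 7.94, 8.03 and 8.32 gave a difference of 0.51 from the control atrium (adjusted p = 0.0353), which was the only one of the 33 chamber calls lost under an alternative, leaving aside the hepatocyte covariate and the choice of a single other probe set.

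Activation and thioester hydrolysis divided by gene. The long-chain acyl-CoA synthetases Acsl4 and Acsl5 were, with Cpt1a, the 3 genes lower in the ventricle than in the control atrium. Acsl5 read 9.48, 9.46 and 9.46 in the mutant, 9.73, 9.68 and 9.70 in the control atria, with the ventricles at 8.95, 8.85 and 8.95. No arrays overlapped between groups: Acsl5 fell 1.18-fold in the mutant (log2 difference -0.24 ± 0.06, adjusted p = 0.0194) and was lower in the ventricle by a log2 difference of -0.78 (adjusted p = 4.78e-06). Acsl4 read 9.57, 9.57 and 9.62 in the mutant, 10.04, 9.65 and 9.63 in the control atria, with the ventricles at 9.004, 9.08 and 8.85. Its ventricular difference of -0.79 was called (adjusted p = 0.000307), whereas the mutant difference of -0.19 ± 0.11 was not (adjusted p = 0.271). The first control array stood above the other 2, and another probe set of Acsl4 fell by 0.34 in the mutant (adjusted p = 0.0427). Acsl3 was not called in any comparison.

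The acyl-CoA thioesterases Acot1 and Acot2 release free fatty acids from coenzyme A in the cytosol and the mitochondrion, and their sequences are closely related, so probes may respond to both. Acot2 read 10.60, 10.66 and 10.51 in the mutant, 10.07, 10.30 and 10.03 in the control atria, with the ventricles at 11.66, 11.52 and 11.74. The groups were separated, with a rise of 1.37-fold in the mutant (0.46 ± 0.09, adjusted p = 0.00823) and a 2.85-fold higher level in the ventricle (1.51, adjusted p = 1.46e-06). The other probe set of Acot2 differed by 0.20 in the mutant and was not called (limma adjusted p = 0.214). In the ventricle it was higher by 1.55 (limma adjusted p = 2.42e-06). Acot1 read 7.60, 7.18 and 7.53 in the mutant, 7.30, 7.58 and 7.40 in the control atria, with the ventricles at 8.46, 8.48 and 9.06. The ventricle was 2.36-fold above the control atrium (1.24, adjusted p = 0.000287), and the mutant differed from the control by 0.01 ± 0.17 (adjusted p = 0.969), with overlapping arrays. Acot13, another thioesterase, was higher on all 3 mutant arrays by 0.18 but not called (adjusted p = 0.0572), and higher in the ventricle by 0.63 (adjusted p = 1.9e-05).

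At the carnitine step, 3 of 4 genes were higher and 1 was lower in the ventricle. Cpt1a, the liver-type carnitine palmitoyltransferase of the outer mitochondrial membrane, read 10.15, 9.97 and 9.78 in the mutant, 9.68, 9.89 and 9.77 in the control atria, with the ventricles at 9.24, 9.35 and 9.43. The ventricles lay below both atrial groups, by a log2 difference of -0.44 from the control atria (1.36-fold, adjusted p = 0.00527), on each of the 3 probe sets of the gene, and the mutant lay 0.63 above the ventricles (adjusted p = 0.00119). The mutant was not called against the control (0.19 ± 0.10, adjusted p = 0.23). The muscle-type gene Cpt1b, which would be its counterpart, is not analysed here.

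Cpt2, the transferase of the inner membrane that returns the acyl group to coenzyme A, read 11.53, 11.90 and 11.77 in the mutant, 10.86, 11.36 and 11.20 in the control atria, with the ventricles at 12.53, 12.55 and 12.78. Every mutant array lay above every control array and below every ventricular array, with a 1.51-fold rise in the mutant (0.59 ± 0.14, adjusted p = 0.0183) and a ventricular difference of 1.48 (adjusted p = 2.51e-05). Malonyl-CoA blocks fatty acid entry at the outer membrane; Acacb makes it and Mlycd breaks it down. Mlycd read 9.21, 9.18 and 9.02 in the mutant, 8.86, 8.98 and 8.76 in the control atria, with the ventricles at 10.05, 10.01 and 10.06, a difference of 0.27 ± 0.08 (adjusted p = 0.0419) beside a chamber difference of 1.17. The mutant call for Mlycd was lost with the replicate block, with only the 2 groups compared, with array weights and with the Y-linked covariate, and it was made in 2 of the 9 fits that left out an array. Acacb was higher in the ventricle by 1.08 (adjusted p = 4.79e-05) and differed in the mutant by 0.27 ± 0.11 (adjusted p = 0.128). The genes that make and remove malonyl-CoA were thus both higher in the ventricle.

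**Figure D2:**
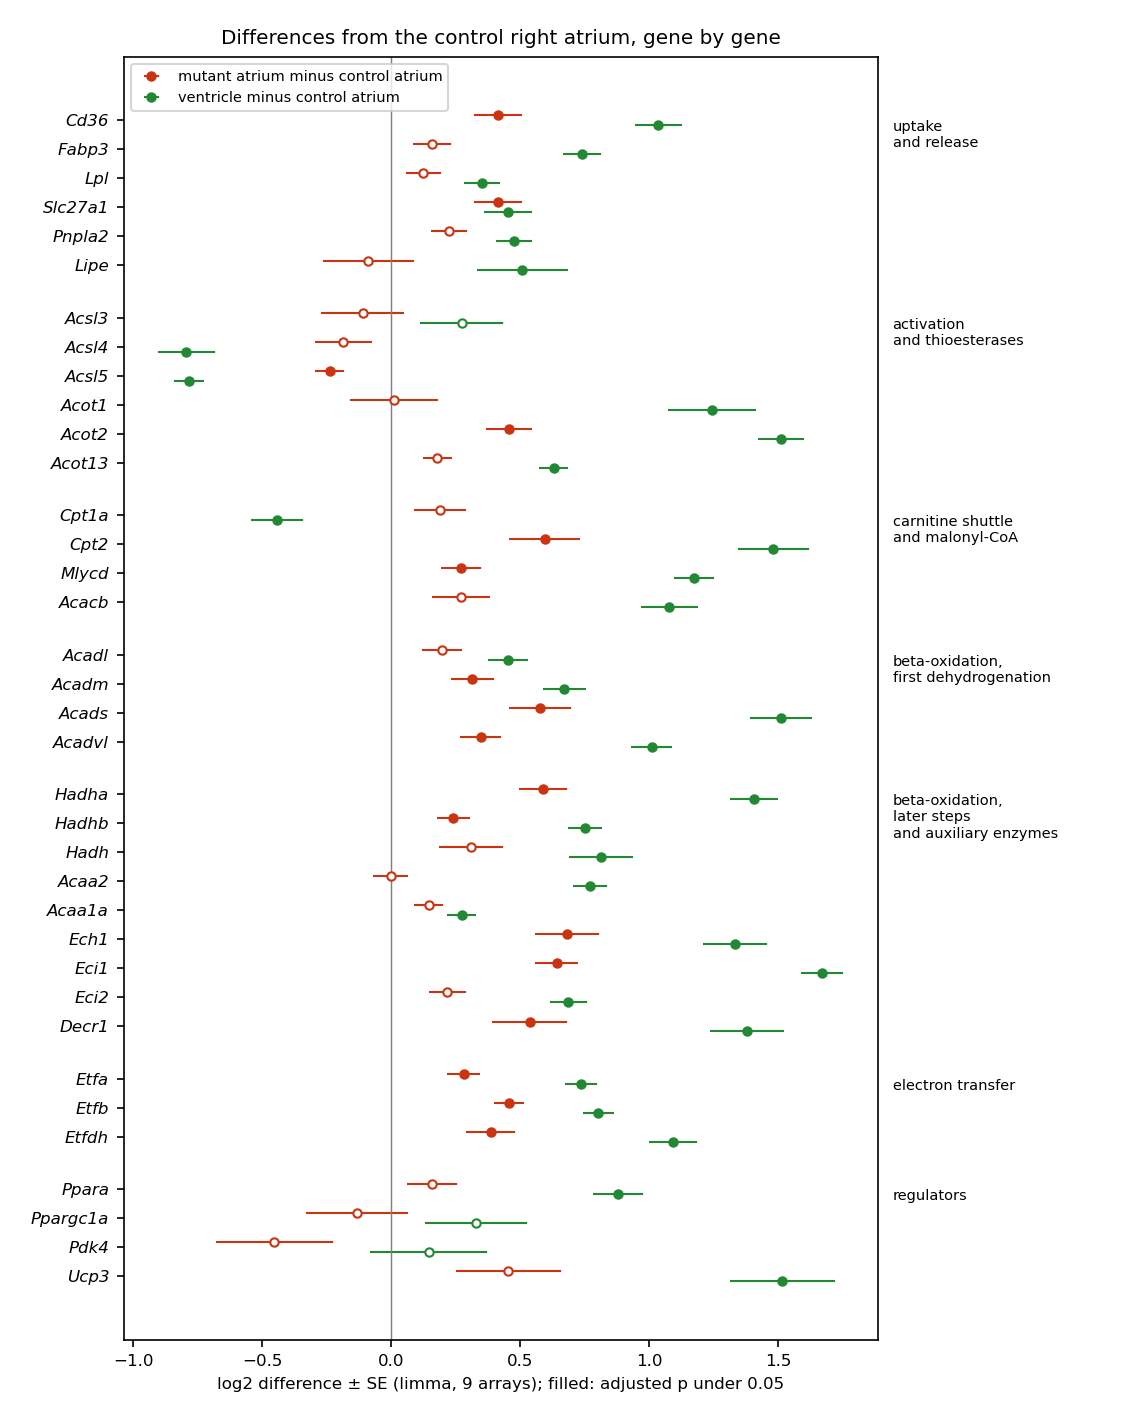
Points give the log2 difference from the control right atrium with its SE for the mutant atrium (red) and the ventricle (green), from the limma model of 9 arrays; filled points passed an adjusted p of 0.05. The mutant differences run from -0.45 to 0.68 and the ventricular ones from -0.79 to 1.67.

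The first dehydrogenation of each beta-oxidation cycle is made by acyl-CoA dehydrogenases that differ in the chain length they take. All 4 were higher in the ventricle, and 3 of 4 rose in the mutant. Acads, for short chains, read 10.27, 10.55 and 10.40 in the mutant, 9.62, 10.09 and 9.77 in the control atria, with the ventricles at 11.25, 11.42 and 11.34, which gave a 1.49-fold rise (0.58 ± 0.12, adjusted p = 0.0112) beside a 2.85-fold chamber difference (adjusted p = 9.04e-06). Acadvl, for very long chains, read 12.87, 13.10 and 12.98 in the mutant, 12.53, 12.75 and 12.63 in the control atria, with the ventricles at 13.65, 13.64 and 13.63. Its rise was 0.35 ± 0.08 (adjusted p = 0.0162) and its chamber difference 1.01, with no overlap between groups. Acadm, for medium chains, read 13.77, 13.90 and 13.92 in the mutant, 13.52, 13.72 and 13.41 in the control atria, with the ventricles at 14.23, 14.24 and 14.18. It rose by 0.31 ± 0.08 (adjusted p = 0.0314), with a chamber difference of 0.67. The mutant call for Acadm was lost with quantile renormalisation and with only the 2 groups compared. Leaving out mutant atrium 2 or 3, or control atrium 1 or 3, also ended it. Acadl, for long chains, differed by 0.20 in the mutant, was not called (adjusted p = 0.113), and was higher in the ventricle by 0.45 (adjusted p = 0.00109).

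Of the 9 genes for the later steps of the cycle and for unsaturated chains, all were higher in the ventricle and 5 rose in the mutant. Eci1, the isomerase that moves double bonds of unsaturated fatty acids into the position the cycle can use, read 12.001, 12.31 and 12.08 in the mutant, 11.45, 11.53 and 11.48 in the control atria, with the ventricles at 13.20, 13.17 and 13.10. The 3 groups stood well apart relative to their spread, with a 1.56-fold rise in the mutant (0.64 ± 0.08, adjusted p = 0.00101) and a chamber difference of 3.18-fold (1.67, adjusted p = 5.38e-07), and the mutant was 1.03 below the ventricle on the log2 scale. Ech1, another isomerase of unsaturated chains, showed the largest rise of the set at 1.6-fold: it read 13.32, 13.74 and 13.79 in the mutant, 12.81, 13.09 and 12.92 in the control atria, with the ventricles at 14.27, 14.23 and 14.32. The first mutant atrium was lower than the other two but above every control (0.68 ± 0.12, adjusted p = 0.00579). Decr1, the reductase that removes one of the double bonds, was called (0.54 ± 0.14, adjusted p = 0.0321) although its arrays overlapped, at 11.57, 12.12 and 12.01 in the mutant against 11.24, 11.59 and 11.26 in the control atria; its second probe set rose by 0.67.

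The trifunctional protein genes read as follows. Hadha lay between 11.88 and 12.12 in the mutant, 11.25, 11.53 and 11.47 in the control atria, with the ventricles at 12.75, 12.82 and 12.90. Hadhb was at 13.70, 13.82 and 13.77, at 13.47, 13.58 and 13.51, and at 14.32, 14.19 and 14.30 in the same order. Neither gene had an overlap between groups. Hadha rose 1.5-fold in the mutant (0.59 ± 0.09, adjusted p = 0.00286) and was 2.65-fold higher in the ventricle, while Hadhb, near the top of the range of the arrays, rose 1.18-fold (0.24 ± 0.07, adjusted p = 0.0334) with a chamber difference of 0.75. The mutant call for Hadhb was lost with the replicate block, with quantile renormalisation and with the mean of all probe sets. It was made in 4 of the 9 fits that left out an array. Another bright probe set of Hadhb differed by 0.21 and was not called (limma adjusted p = 0.133), and a dimmer one differed by -0.18. The difference between the paired genes was not tested.

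The remaining genes of this step were not called in the mutant. Acaa2, the mitochondrial thiolase that ends the cycle, differed by 0.00 in size with an SE of 0.07 (adjusted p = 0.98), at 12.72, 12.68 and 12.78 in the mutant against 12.62, 12.80 and 12.76 in the control atria, while the ventricles read 13.50, 13.47 and 13.53. Acaa2 was thus higher in the ventricle by 0.77 (adjusted p = 1.53e-05), and the mutant arrays lay within the control range on this probe set. Its other probe sets differed by -0.05 and 0.20 in the mutant and were not called (limma adjusted p = 0.657 and 0.203). In the ventricle they were higher by 0.70 and 1.28. Hadh, the short-chain hydroxyacyl-CoA dehydrogenase, differed by 0.31 ± 0.12 (adjusted p = 0.119), Eci2 by 0.22 (adjusted p = 0.0669) and the peroxisomal thiolase Acaa1a by 0.14 (adjusted p = 0.11). Their chamber differences were 0.81, 0.69 and 0.27, all called. The probe sets of Acaa2, Hadh, Acaa1a and Acsl3 are of a kind that may share probes with related transcripts.

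Electron transfer was the step at which every measured gene was called higher in the mutant. The differences were also positive, though not all called, for all 4 genes of the carnitine step and all 4 of the first dehydrogenation. The flavoprotein subunits Etfa and Etfb take electrons from the acyl-CoA dehydrogenases, and Etfdh hands them to ubiquinone. Etfb read 12.86, 12.96 and 12.90 in the mutant, 12.47, 12.40 and 12.48 in the control atria, with the ventricles at 13.20, 13.25 and 13.30. Its spread within groups was small, with SDs of 0.05, 0.04 and 0.05, and it rose 1.37-fold (0.46 ± 0.06, adjusted p = 0.00106) beside a chamber difference of 0.80 (adjusted p = 5.68e-06). Etfa read 13.18, 13.36 and 13.29 in the mutant against 12.95, 13.04 and 12.99 in the control atria, a rise of 0.28 ± 0.06 (adjusted p = 0.0158). Etfdh read 12.58, 12.87 and 12.72 against 12.21, 12.48 and 12.32, a rise of 0.39 ± 0.09 (adjusted p = 0.0222). The ventricular values of both were higher still, by 0.74 and 1.09 over the control atrium, and for all 3 genes the mutant was lower than the ventricle (log2 differences -0.46, -0.35 and -0.71 for Etfa, Etfb and Etfdh). The mutant calls for Etfa and Etfdh were lost without mutant atrium 2, mutant atrium 3 or control atrium 1. That for Etfdh was also lost without control atrium 3 and with the mean of all probe sets.

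**Figure D3:**
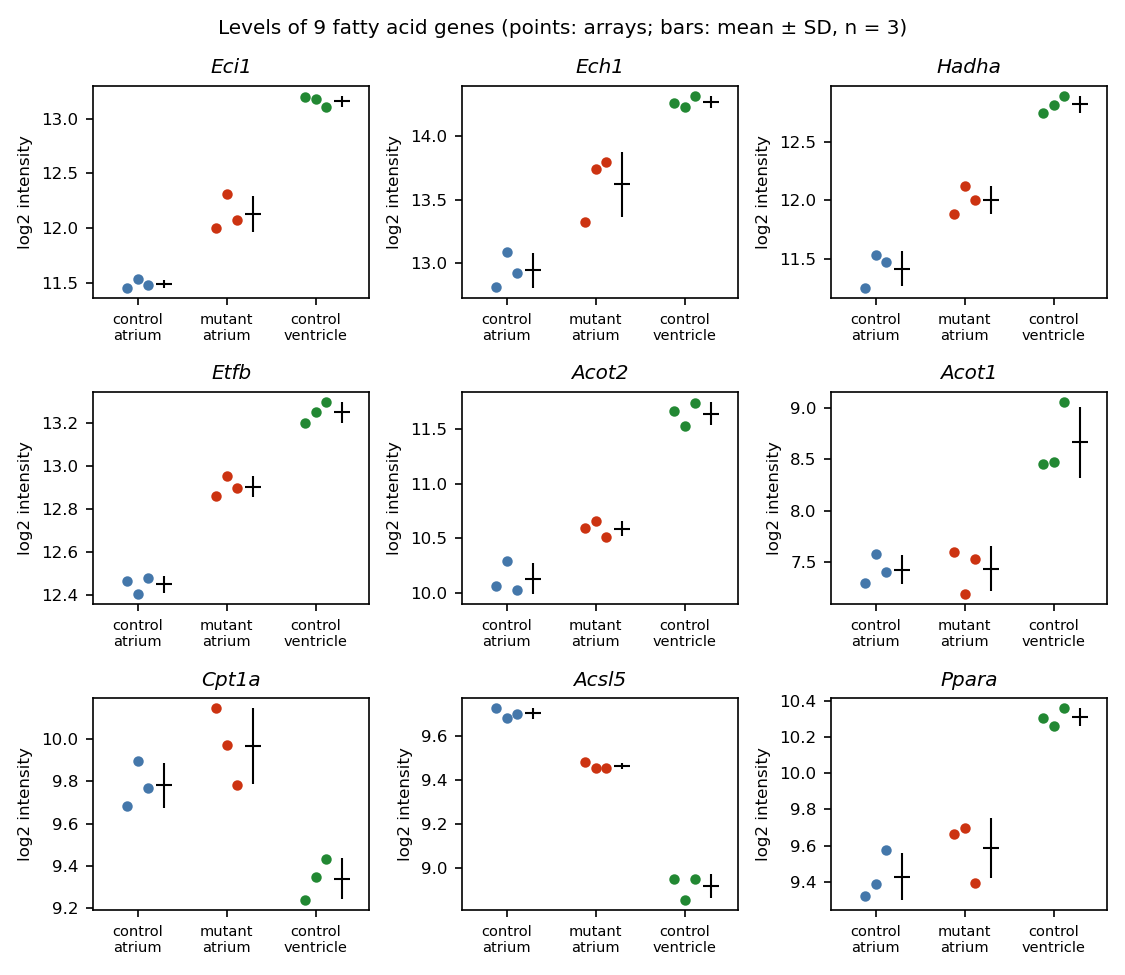
Log2 intensity of 9 genes by group, with points for arrays and bars for the mean ± SD (n = 3); each panel has its own axis, which does not start at 0. Eci1, Ech1, Hadha, Etfb and Acot2 form 3 separate levels, Acot1 and Ppara differ only for the ventricle, and Cpt1a and Acsl5 are lowest in the ventricle.

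None of the 4 measured regulators was called in the mutant. Ppara, the nuclear receptor gene named above, read 9.66, 9.70 and 9.39 in the mutant, 9.32, 9.39 and 9.57 in the control atria, with the ventricles at 10.30, 10.26 and 10.36. The atrial groups overlapped (0.16 ± 0.10, adjusted p = 0.289), and the ventricle was 1.84-fold higher than the control atrium (adjusted p = 6.77e-05). Ppargc1a, which encodes PGC-1 alpha, read 12.22, 11.79 and 11.58 in the mutant, 12.07, 11.77 and 12.15 in the control atria, with the ventricles at 11.97, 12.62 and 12.38, with overlap throughout and no call in any comparison on the probe set used. Another bright probe set of Ppargc1a was higher in the ventricle than in the control atrium by 0.74 (limma adjusted p = 0.0187). On it the mutant differed from the ventricle by -0.71 (limma adjusted p = 0.0348) and from the control atrium by 0.03, not called. Its remaining probe sets were not called in any comparison. Pdk4, the kinase that shuts pyruvate out of oxidation, was the most scattered, at 12.61, 11.67 and 12.06 in the mutant, 12.30, 12.59 and 12.81 in the control atria, with the ventricles at 12.45, 12.83 and 12.86. Its mutant difference of -0.45 ± 0.23 was the lowest of the set and was not called (adjusted p = 0.197).

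Ucp3, an uncoupling protein of muscle mitochondria that is induced together with fatty acid oxidation, read 7.99, 7.34 and 7.35 in the mutant, 6.87, 7.31 and 7.13 in the control atria, with the ventricles at 8.45, 8.45 and 8.96. The mutant arrays were above the control arrays but by little for 2 of them, and the difference of 0.45 ± 0.20 was not called (adjusted p = 0.157). The ventricle was 2.86-fold above the control atrium (adjusted p = 0.000247) and the mutant 1.06 below the ventricle on the log2 scale (adjusted p = 0.00327).

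Other genes of fatty acid handling gave a weaker picture as a list. Of 75 written down as a further list, 70 were measured, and in the mutant atrium 17 were higher and 9 lower than in the control atrium, with a median log2 difference of 0.06. In the ventricle 41 were higher and 9 lower than in the control atrium (median 0.36), and the mutant was higher than the ventricle in 9 and lower in 37 (median -0.31). These counts stand beside the same shares of all genes called as above. With the hepatocyte covariate, 0 of the 70 were called between mutant and control atria and 10 between the control chambers.

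The largest mutant difference was that of Plin5, a coat protein that holds lipid droplets against mitochondria. It read 10.47, 10.49 and 10.07 in the mutant, 8.51, 8.80 and 8.58 in the control atria, with the ventricles at 11.55, 11.55 and 11.65. The groups were far apart, with a 3.28-fold rise in the mutant (1.71 ± 0.12, adjusted p = 2.55e-05) and a 7.74-fold chamber difference. Pdk3, a pyruvate dehydrogenase kinase, fell in the mutant: it read 7.64, 7.44 and 7.64, against 8.86, 9.002 and 8.82 in the control atria, with the ventricles at 6.36, 6.26 and 6.37 (mutant difference -1.32 ± 0.08, adjusted p = 1.28e-05). Scd1, which puts the first double bond into saturated fatty acids, read 9.57, 9.64 and 9.81 in the mutant, 11.28, 10.59 and 11.10 in the control atria, with the ventricles at 8.44, 8.39 and 8.50. It fell by 1.32 on the log2 scale (adjusted p = 0.000539), and for both Pdk3 and Scd1 the mutant lay between the control chambers.

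Acaa1b, a peroxisomal thiolase gene, also had a large negative difference (-1.36 ± 0.30, adjusted p = 0.0149). Its control atrial values of 6.41, 5.52 and 4.84 were highest on the array with the most liver transcripts and lowest on that with the fewest, against 4.19 to 4.29 in the mutant and 4.16 to 4.40 in the ventricles, and with the hepatocyte covariate the difference turned to 0.75 and that of the ventricle from -1.31 to 1.00. Gpihbp1, which anchors Lpl to the capillary wall, read 10.07, 10.83 and 10.42 in the mutant, 9.14, 9.36 and 9.36 in the control atria, with the ventricles at 11.16, 11.26 and 11.35, a rise of 1.16 ± 0.16 (adjusted p = 0.0017) beside a chamber difference of 1.97. Dgat2, which completes triglyceride synthesis, differed in opposite directions in the mutant and the ventricle: it read 9.72, 9.79 and 9.74 in the mutant, 10.12, 10.23 and 10.33 in the control atria, with the ventricles at 11.29, 11.48 and 11.10. It fell by 0.48 on the log2 scale in the mutant (adjusted p = 0.0102), while the ventricle was 1.07 above the control atrium. The binding protein gene Fabp5 was lower in the ventricle, at 11.67, 11.44 and 11.54, than in the mutant (13.28, 12.84 and 12.88) and the control atria (13.23, 13.07 and 13.05), which overlapped.

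Other gene lists on the same arrays moved as follows. Of all genes, 7.76% were called higher and 9.79% lower in the mutant than in the control atria. In the ventricle, 29.2% were called higher and 23.6% lower than in the control atria. Against the ventricle, 16.0% were called higher and 16.7% lower in the mutant. All mutant arrays lay below all control atrial arrays for 18.9% of genes. Of 15 nuclear-coded mitochondrial genes outside fatty acid oxidation, 3 rose in the mutant (Cs, Ndufv1 and Cox4i1, by 0.46, 0.32 and 0.18) and 0 fell, with a median of 0.08, and 13 were higher in the ventricle, with a median of 0.43. All 15 differences were positive in both comparisons. The 4 ventricular muscle genes rose in the mutant, with array means of 11.66 to 12.06 against 8.90 to 9.23 in the control atria, with the ventricles at 12.33 to 12.59. These means average unlike genes: against the ventricle, 1 was higher in the mutant, 2 were lower and 1 was not called, with log2 differences from -3.02 to 1.00. Of the 5 atrial muscle genes, 2 were called and fell, 4 were below the control atria on all mutant arrays, and the median log2 difference was -1.35. All 5 were called higher in the mutant than in the ventricle, with a median log2 difference of 6.40. Of 6 macrophage markers, 4 were higher in the mutant than in the control atria, and of 5 fibroblast markers 1. Of 7 endothelial markers, 0 were higher and 1 was lower in the mutant than in the control atria (median log2 difference -0.22). In the ventricle, 0 of these 7 were higher and 4 were lower than in the control atria (median -0.33). Of the 8 adipocyte markers 6 were measured, of which 2 were higher in the mutant than in the control atria, 1 was lower and 3 were not called (median -0.09). Adipoq, the fat cell hormone, was the lower one (log2 difference -2.45), and Cidea, a lipid droplet protein, and Ucp1, the brown fat uncoupling protein, were higher by 1.14 and 0.34. Adipoq read 7.49, 5.52 and 8.19 in the control atria and 4.23 to 5.17 in the mutant. The part of these lists in the fatty acid differences was not tested.

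**Figure D4:**
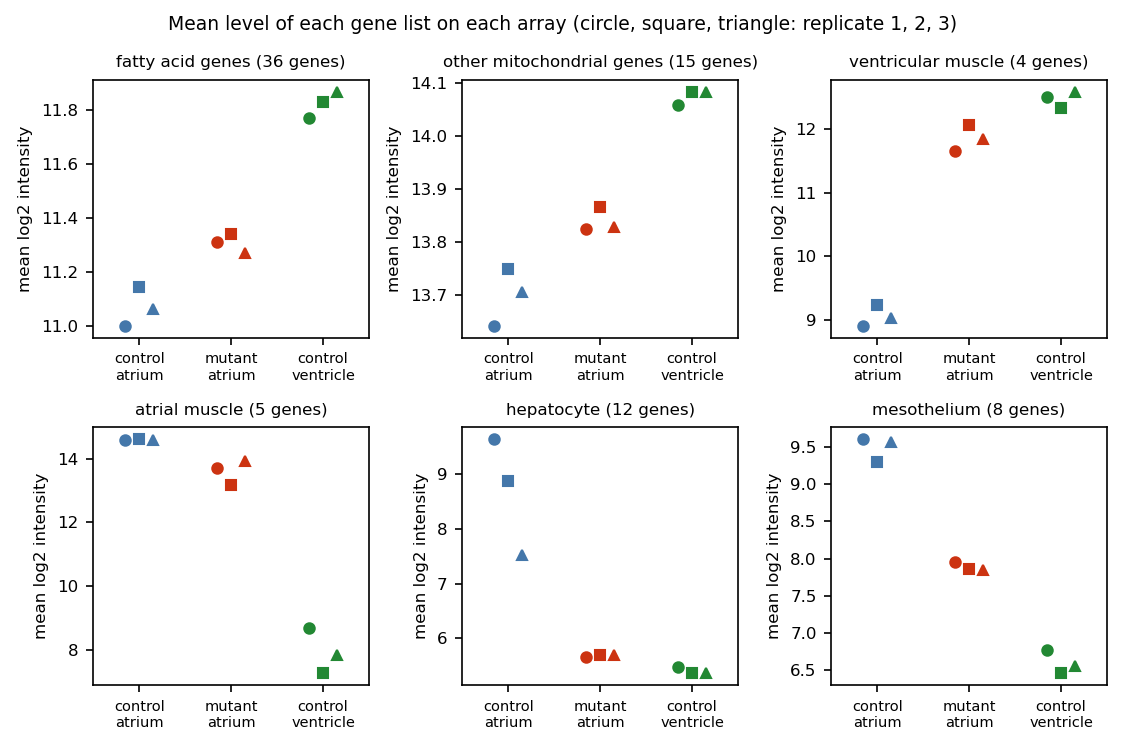
Mean log2 intensity of 6 gene lists on each array (circle, square and triangle for replicates 1, 2 and 3); axes differ between panels and do not start at 0. The 36 fatty acid genes average at most 11.14 in the control atria, 11.27 to 11.34 in the mutant atria and 11.77 to 11.87 in the ventricles, and the hepatocyte list is raised in the control atria only.

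Where the 22 genes with several probe sets could be compared, 26 of 33 other probe sets had the sign of the one used between mutant and control atria and 32 of 33 between the control chambers. Other probe sets of called genes were themselves called with the same sign for 4 of 9 between mutant and control atria and for 21 of 27 between the control chambers.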

How the data were processed

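RNA from right atria and ventricles was hybridised to Affymetrix 3' expression arrays, 1 array per sample, with biotin labelling per the labels' protocols. Each deposited value is the intensity of a probe set, which the authors obtained with RMA per the submitters' processing notes; its version and the genome build are not given in the sources used here. RMA equalises the distributions of arrays, so a shift shared by all genes would be lost. The values lie on a linear scale, and log2 was taken. Of 45101 probe sets, 64 controls, 932 of several genes and 9160 without a gene were dropped, leaving 34945; each of 18193 genes was read from its brightest probe set by the 9-array mean. By gene ID, 18032 matched RefSeq, and no symbol differed.

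A single model with a mean per group was fitted with limma 3.58.1 (R 4.3.3; 6 residual and 3.48 prior degrees of freedom), 2-sided; adjusted p-values follow Benjamini-Hochberg across the whole table and were called under 0.05. The 3 tests per gene were not adjusted across comparisons. The number of arrays limits the precision. The code was tested on simulated data. Members, lists and the naming rule (all members, and the 4 largest called differences of the further genes per comparison) were chosen with earlier results of these data known. No clear pairing of arrays by replicate number was seen: correlations of deviations were -0.10 to 0.12, with 1 of 9 over 0.1. So few arrays cannot show that pairing is absent. A replicate block took the median SE of the 36 genes from 0.092 to 0.084. The alternatives were the replicate block, an intensity trend, a filter on dim genes, renormalisation, probe set rules, array weights, 2 groups only, a hepatocyte covariate, leaving out each array and, added after seeing the data, a covariate of 3 Y-linked genes. Python 3.11.15 was used for promoters and figures.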

Additional observations from a re-analysis of the deposited data

How the results depend on the processing

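Between mutant and control atria the 17 called fatty acid genes became 0 with the hepatocyte covariate, and all genes called went from 3192 to 66; between the control chambers the counts went from 33 to 6 and from 9615 to 961. The median difference of the 36 genes went from 0.26 to 0.21 and from 0.76 to 0.77, and its median SE from 0.092 to 0.23 and to 0.25. Leaving out 1 array gave 6 to 19 fatty acid genes and 1832 to 3074 genes in all between mutant and control atria (1832 without mutant atrium 2, 1990 without mutant atrium 3, 1972 and 2013 without control atrium 1 or 2), 32 to 33 and 7742 to 9459 between the control chambers, and 27 to 31 and 4657 to 5961 between mutant atrium and ventricle. The replicate block gave 15, 32 and 30 fatty acid genes in these comparisons. The Y-linked covariate gave 18, 32 and 28 fatty acid genes in the same order. All genes called with it were 3308, 7415 and 4448, against 3192, 9615 and 5956 without it. Reversed signs were counted only where the main or the alternative value was called. They were those of Acaa1b with the hepatocyte covariate (0.75 in the mutant and 1.00 in the ventricle), of Hadhb in the mutant by another probe set (-0.18) and of Pnpla2 between mutant atrium and ventricle by another probe set (0.041). Between mutant and control atria, other probe sets of Fabp3, Lipe, Acaa2, Acaa1a and Ppargc1a also had the opposite sign, without a call. The causes were not tested. Median centring gave splits of higher against lower genes of 1751 to 1448 against 1411 to 1781 in the first comparison, 8799 to 3072 against 5314 to 4301 in the second and 2244 to 5884 against 2910 to 3046 in the third; it moved the median of all genes in the second from 0.07 to 0.21 and that of the fatty acid genes from 0.76 to 0.90. Leaving out the dimmest 40% of genes gave 2931 to 3881 in the second. Signal near the top of the range limits Fabp3, Lpl, Acadm, Hadhb, Hadh and Ech1.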
